A study of Mus musculus with 20 samples.

Results

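Genes of oxidative phosphorylation were followed in the plantaris tendon of mice during tendon growth. The members were all genes of the deposited count table whose symbol marks a subunit of the respiratory chain complexes I to IV or of ATP synthase, complex V, pseudogene names left out. This rule used names alone and found 92 of 24885 genes, of which 8 are encoded in mitochondrial DNA and 84 in the nucleus. Of these, 7 mitochondrially encoded and 81 nuclear members had enough reads to be tested, among 18918 genes tested in all. The nuclear members left untested were Cox6c2, Ndufa11b and Ndufb4c, with 23, 25 and 28 counts over all libraries. The nuclear members comprise 39 genes named for complex I, 4 for complex II, 8 for complex III, 17 for complex IV and 16 for complex V.

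Whole-tissue RNA-seq was available for 20 libraries in 5 groups of 4. Every mouse carried floxed alleles of Igf1r (IGF1Rflox/flox), the receptor of insulin-like growth factor 1. The groups called WT lacked the ScxCreERT2 allele (ScxCreERT2-/-), and the groups called KO carried it (ScxCreERT2+/+), an allele that expresses a tamoxifen-activated Cre recombinase under control of Scx, a tendon fibroblast gene. WT day 0 tendons had neither tamoxifen nor a growth stimulus, whereas the WT and KO tendons of day 7 and day 14 had both. Tamoxifen and the growth stimulus can therefore not be told apart in any comparison with day 0, and a KO day 0 group was not analysed here. The 4 comparisons with day 0 also share the same WT day 0 libraries. The labels do not say that replicates came from separate animals, and p-values therefore measure the spread between libraries, which may be technical.

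Oxidative phosphorylation transfers electrons from NADH and succinate through complexes I to IV to oxygen and uses the resulting proton gradient to make ATP in complex V. Its subunits come from both genomes: mitochondrial DNA encodes a few core subunits of complexes I, III, IV and V, and nuclear genes encode the rest, including all of complex II. Several subunits of complex IV, cytochrome c oxidase, exist as a form found mainly in heart and skeletal muscle and a form made in most tissues. Tendon is known as a tissue of low oxidative metabolism, whereas the muscle to which it attaches is rich in mitochondria.

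Library totals ran from 32254411 to 63522834 counts. At day 7 the level of Igf1r itself was 49.2 ± 2.17 CPM (counts scaled to a common library size; SD, n = 4) in WT tendon and 51.3 ± 2.81 in KO tendon, and at day 14 it was 45.3 ± 3.63 and 53.1 ± 4.996. Throughout, a gene passed the test at a Benjamini-Hochberg adjusted p under 0.05 over all genes tested, in edgeR's quasi-likelihood test. Neither Igf1r difference passed (edgeR adjusted p = 0.646 and 0.162), so the gene-level count does not show the deletion, and a count over the whole gene is no check of the exon that Cre removes. The level of Scx at day 7 was 736 ± 281 CPM in KO tendon against 50.5 ± 5.52 in WT. Only KO mice carried the ScxCreERT2 allele, and its part in the Scx count was not tested. The 10 tendon fibroblast markers were all detected in every group. Genes of skeletal muscle fibres were detected too: 32 markers made up 3.94% to 8.99% of all counts in WT day 0 libraries, 0.0960% to 0.409% in WT day 7, 0.859% to 1.98% in KO day 7, 0.477% to 3.11% in WT day 14 and 0.260% to 3.51% in KO day 14. The WT day 7 range overlaps neither WT day 0 nor KO day 7.

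The summed level of the 8 mitochondrially encoded members was 62780 ± 16550 CPM at WT day 0 (SD, n = 4). At WT day 7 it was 12194 ± 1326 CPM, 5.15-fold lower. At WT day 14 it was 17693 ± 2778 CPM, and in KO tendon 12323 ± 1021 at day 7 and 17338 ± 3377 at day 14. All 16 libraries of day 7 and day 14 lay below all 4 of day 0, whose lowest library reached 45040 CPM. The nuclear members summed to 8839 ± 1879 CPM at WT day 0 and 5074 ± 222 at WT day 7, 1.74-fold lower, and to 5352 ± 203 in KO day 7, 5288 ± 759 in WT day 14 and 5051 ± 656 in KO day 14. The level of no library of day 7 or 14 reached the lowest nuclear sum of day 0, 6701 CPM. As counted in whole tissue, fewer cells of a type and less RNA per cell cannot be told apart.

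**Figure D1:**
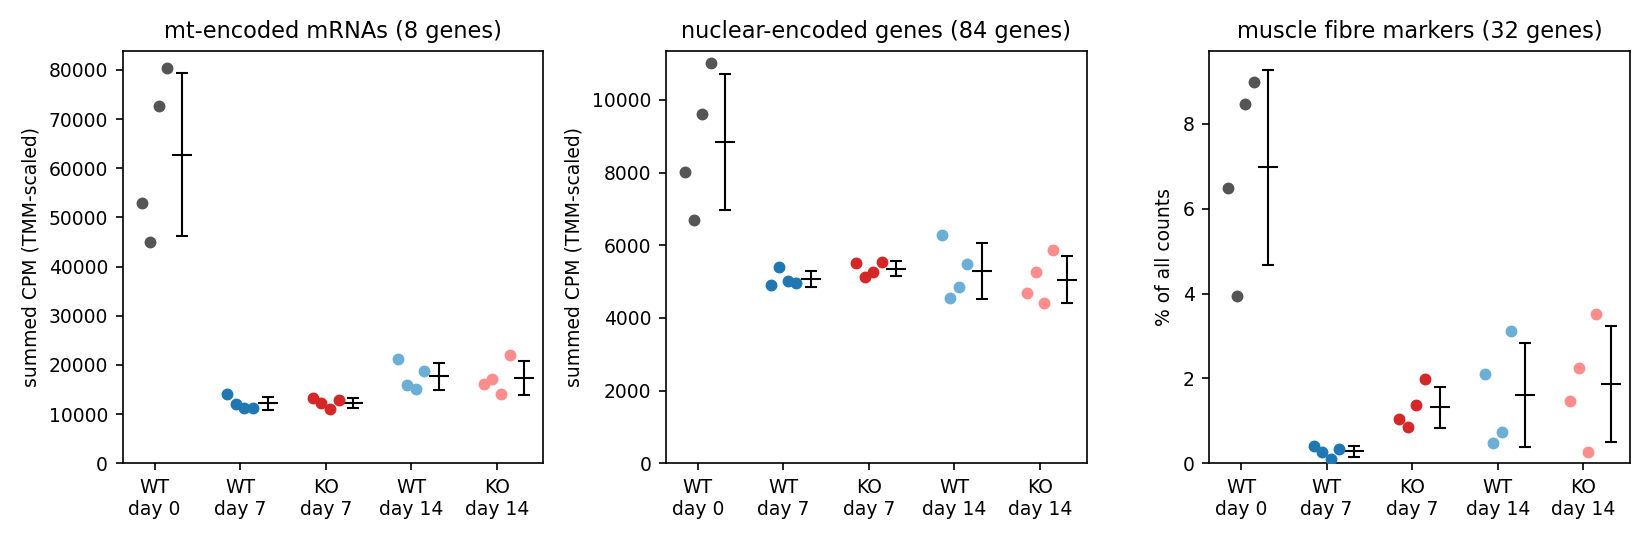
Summed level of the 8 mitochondrially encoded mRNAs and of the 84 nuclear genes (CPM after TMM scaling, both axes from 0), and share of counts from 32 muscle fibre markers, for each of 20 libraries (points) with group mean and SD (n = 4). Day 0 libraries lie above all others in the first and second panels, and WT day 7 has the lowest muscle marker share on average.

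At WT day 7 all 7 tested mitochondrially encoded genes were lower than at WT day 0, where 31.8% of all genes tested were lower and 64.1% differed in either direction. Their median log2 fold change was -2.46, against 0.02 over all genes tested. The complex I subunit mt-Nd2 fell by the most among the 7. Its level was 6639, 5695, 9630 and 10597 CPM in the 4 WT day 0 libraries, 965, 845, 782 and 776 in WT day 7, and 1012, 1021, 901 and 1055 in KO day 7. At day 14 mt-Nd2 stood at 1658, 1285, 1230 and 1531 CPM in WT and 1497, 1590, 1296 and 1900 in KO. The day 0 libraries were thus high throughout, the day 7 libraries lowest, and the day 14 libraries of both genotypes lay between them without overlap. The log2 fold change of mt-Nd2 was -3.27 ± 0.18 (SE) for WT day 7 against day 0 (edgeR adjusted p = 3.41e-11).

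The catalytic complex IV subunit mt-Co1 fell by the least, by 2.01 ± 0.17 on the log2 scale (edgeR adjusted p = 8.09e-09). It was at 14079, 12029, 18892 and 21218 CPM in WT day 0 and at 4579, 4053, 3915 and 3886 in WT day 7, again without overlap. On the mouse mitochondrial genome of GRCm38 (GENCODE annotation), mt-Nd2 spans bases 3914 to 4951 and mt-Co1 bases 5328 to 6872, both on the plus strand. Between these values, the log2 changes were -2.30 for mt-Nd1, -2.30 for mt-Cytb, the only complex III subunit of mitochondrial DNA, -2.46 for mt-Nd6, -2.53 for mt-Nd4 and -2.55 for mt-Nd5. Of the 7, mt-Nd6 alone is encoded on the opposite strand of mitochondrial DNA, and its change was the median of the 7. Levels per kilobase used the merged length of all annotated exons of a gene. At WT day 0 they ran from 3757 CPM for mt-Nd4 to 10715 for mt-Co1. All 7 were above the highest nuclear member, Atp5a1 at 282 CPM per kilobase. At WT day 7 the order was nearly kept, with mt-Nd4 lowest at 650.1 and mt-Co1 highest at 2659 CPM per kilobase, but mt-Nd2 moved from 7842, above mt-Nd6 at 5370, to 811, below mt-Nd6 at 973.

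The eighth mitochondrially encoded member, mt-Nd3, was not tested. It had 29 counts in the whole table, none of them in the 12 WT libraries and between 1 and 6 in each of the 8 KO libraries, while the other 7 were each at 462 CPM or more in every library. How multiply mapped reads were handled is not given in the sources used here. Reads of mitochondrial genes can be shared with nuclear copies of mitochondrial DNA, and the levels of all mt- genes are uncertain to that extent. mt-Nd5 and mt-Nd6 lie on opposite strands and overlap at their ends. mt-Co2, mt-Co3, mt-Atp6, mt-Atp8 and mt-Nd4l fit the naming rule but are not among the genes of the count table. The summed level of the mitochondrially encoded mRNAs therefore leaves them out.

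Of the 81 nuclear members tested, 74 (91.4%) fell and 2 rose at WT day 7, and 5 did not pass the test. Over all genes tested, 31.8% were lower, 32.3% were higher and 64.1% differed in this comparison. The median log2 fold change of the nuclear members was -0.77, and 24 of them were lower by 2-fold or more. In complex I, which oxidizes NADH, 36 of 37 fell with a median of -0.88. The largest changes were those of Ndufb5 at -1.36, Ndufs7 at -1.35 and Ndufb9 at -1.34. All 7 core subunits of the nuclear-encoded matrix arm fell, among them Ndufs7, which holds the last iron-sulphur cluster before ubiquinone. Ndufs7 was at 91.3, 76.7, 107 and 125 CPM in WT day 0, 36.9, 41.7, 38.3 and 39.6 in WT day 7, and 43.3, 40.1, 41.1 and 44.0 in KO day 7. Both day 7 groups lay wholly below day 0 (WT day 7 against WT day 0, edgeR adjusted p = 2.02e-08). The exception in complex I was Ndufc2, at 38.9 ± 4.67 CPM at day 0 and 40.4 ± 2.10 at WT day 7 (log2 0.05 ± 0.10 SE, edgeR adjusted p = 0.665). Part of Ndufb9 overlaps an unnamed gene model on the same strand, over 19.5% of its exon bases, and its count is uncertain to that extent.

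In complex II, succinate dehydrogenase, Sdha, Sdhb and Sdhc fell at WT day 7, by 1.17, 0.62 and 0.69 on the log2 scale. The flavoprotein subunit Sdha was at 328, 283, 394 and 472 CPM in WT day 0 and 157, 174, 168 and 157 in WT day 7, and its groups did not overlap. The membrane anchor Sdhd had a log2 fold change of -0.25 ± 0.11 (SE, edgeR adjusted p = 0.0516). All 8 nuclear genes of complex III fell, with a median of -0.90. The largest of these changes were -1.21 for the Rieske iron-sulphur protein Uqcrfs1, -1.19 for the core protein Uqcrc1 and -1.03 for Uqcr10. Uqcrc1 was at 219, 178, 302 and 354 CPM in WT day 0 and 95.2, 119, 124 and 123 in WT day 7.

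In complex V, 14 of 16 members fell at WT day 7 and none rose, with a median of -0.73. All 5 subunits of the catalytic F1 head fell. Atp5a1, the alpha subunit, was at 779, 620, 976 and 1166 CPM in WT day 0 and 438, 512, 495 and 478 in WT day 7. Its log2 fold change was -0.88 ± 0.15 (SE, edgeR adjusted p = 5.29e-05). The c ring of the rotor is encoded by 3 genes for the same mature protein, and these differed: Atp5g1 fell by 1.07, the largest change in complex V ahead of Atp5k at -1.005 and Atp5e at -0.97, and Atp5g3 fell by 0.54 on the log2 scale, whereas Atp5g2, at 1.39 ± 0.260 CPM at day 0 and 1.67 ± 0.394 at WT day 7, did not pass the test (log2 0.26 ± 0.21 SE, edgeR adjusted p = 0.279). Atp5l, a small membrane subunit, was at 6.58 ± 0.722 and 6.57 ± 0.781 CPM and did not pass the test either. Per kilobase of merged exon, Atp5g2 and Atp5l stood at 0.83 and 1.02 CPM at WT day 0, against 98.8 for Atp5g3. The merged exon length was 1675 bases for Atp5g2, 6443 for Atp5l and 2181 for Atp5g3, and a long annotated length lowers the value. The handling of multiply mapped reads is not given for nuclear genes either, and these low counts are uncertain to that extent.

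**Figure D2:**
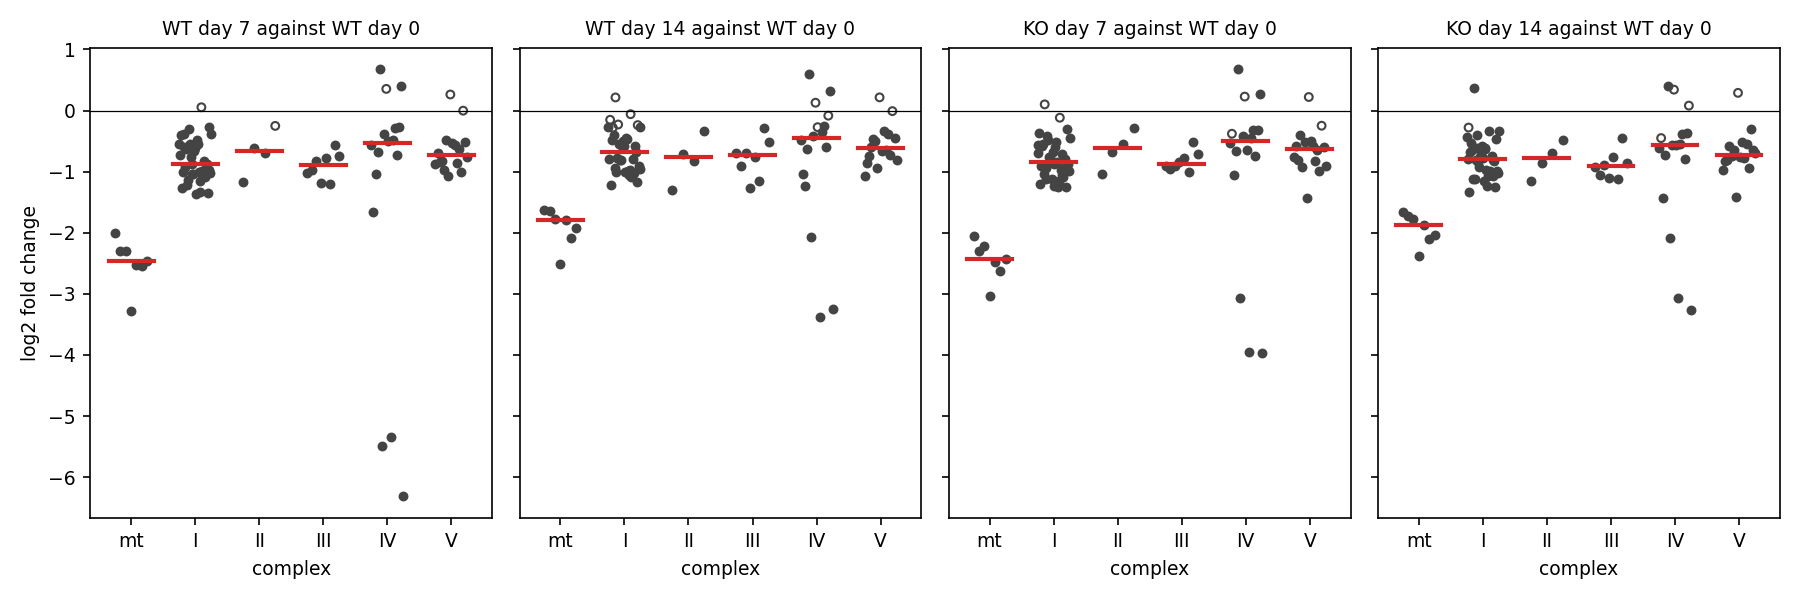
Log2 fold change against WT day 0 of each tested member, by complex, in 4 panels (1 for each later group). Filled points passed the edgeR test, open points did not, and red bars are medians; the mitochondrially encoded genes lie between -3.27 and -1.62 in all 4 panels, and 3 genes of complex IV lie lower than all others at WT day 7.

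Complex IV showed the widest range. At WT day 7 13 of its 16 tested genes fell, Cox6a1 and Cox8a rose, and Cox6b2 did not pass the test (1.66 ± 0.586 CPM at day 0, 2.10 ± 0.618 at WT day 7). The muscle forms Cox8b, Cox6a2 and Cox7a1 fell the furthest, with log2 changes of -6.32 ± 0.67, -5.48 ± 0.75 and -5.35 ± 0.58 (SE; edgeR adjusted p = 4.49e-07, 8.24e-06 and 5.55e-07). Cox6a2 was at 151, 89.8, 206 and 251.5 CPM in WT day 0 and at 6.10, 3.59, 1.52 and 4.35 in WT day 7. On GRCm38, Cox6a2 lies on chromosome 7 from 128205435 to 128206387, on the minus strand, and 10.3% of its exon bases overlap Itgad. Its partner made in most tissues, Cox6a1 (chromosome 5, 115345642 to 115348981, minus strand), was at 73.7, 76.9, 67.5 and 67.9 CPM in WT day 0 and at 108, 119, 120 and 111 in WT day 7, without overlap and in the opposite direction (log2 0.68 ± 0.08 SE, edgeR adjusted p = 3.27e-07). Cox8a, the partner of Cox8b, rose by 0.41 ± 0.09 (edgeR adjusted p = 0.000564), from 75.8, 79.3, 65.0 and 63.2 CPM to 89.4, 99.2, 95.4 and 91.2. Cox7a2, the partner of Cox7a1, fell by 0.48 on the log2 scale. For these 3 pairs, the 2-sided exact permutation test over 4 against 4 libraries gave p = 0.0286 for each gene, the smallest value it can give in this design. This value only restates that the groups did not overlap, and adds no support to the edgeR test on the same libraries. In this comparison 64.1% of all genes tested differed, and the share of all genes without overlap was not counted.

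Per kilobase of merged exon, Cox6a2 made up 69.4% ± 10.9 of the Cox6a2 and Cox6a1 level at WT day 0 (SD, n = 4). At WT day 7 it made up 3.43% ± 1.75. The share was 15.7% ± 5.11 in KO day 7, 26.6% ± 14.8 in WT day 14 and 28.9% ± 16.5 in KO day 14. Cox8b made up 65.8% ± 10.9 of the Cox8b and Cox8a level at day 0, then 1.92% ± 0.976, 9.81% ± 4.49, 14.3% ± 7.42 and 16.6% ± 9.55 in the same order of groups. Cox7a1 made up 56.6% ± 6.94 of the Cox7a1 and Cox7a2 level at day 0, then 4.48% ± 1.43, 10.7% ± 3.50, 13.9% ± 6.54 and 18.1% ± 8.51. By group mean, all 3 muscle forms thus held the larger part of their pair at day 0 and the smaller part in each later group. In single libraries of day 0 the exception was replicate 2, where Cox7a1 held 48.7%. At day 14 the libraries of either genotype spread widely, as did their muscle fibre markers: Cox6a2 ran from 14.9 to 66.9 CPM in WT and from 6.48 to 72.9 in KO.

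The 250 bases before the transcript start of a muscle form and its partner are shown for the COX7A and COX8 pairs, which hold 2 of the 3 largest falls and a partner that rose. The sequences are from RefSeq on GRCm38.p6, written 5′ to 3′ on the gene's strand, with matches to the motifs searched in capitals. Of the 84 nuclear members, 64 matched an entry of that promoter set. The lines give Cox7a1 at chr7:30183921-30184170 (plus strand), Cox8b at chr7:140900447-140900696 (minus strand), Cox7a2 at chr9:79759854-79760103 (minus strand) and Cox8a at chr19:7217617-7217866 (minus strand).
Cox7a1: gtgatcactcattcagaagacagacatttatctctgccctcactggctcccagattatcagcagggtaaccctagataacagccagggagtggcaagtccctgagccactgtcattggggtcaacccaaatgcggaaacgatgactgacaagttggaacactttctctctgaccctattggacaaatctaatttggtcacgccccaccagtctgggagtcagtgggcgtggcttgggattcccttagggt
Cox8b: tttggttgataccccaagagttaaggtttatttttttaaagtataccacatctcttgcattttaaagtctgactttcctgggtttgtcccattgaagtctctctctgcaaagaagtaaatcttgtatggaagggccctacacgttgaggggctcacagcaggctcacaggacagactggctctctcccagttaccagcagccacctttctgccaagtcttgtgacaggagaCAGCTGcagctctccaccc
Cox7a2: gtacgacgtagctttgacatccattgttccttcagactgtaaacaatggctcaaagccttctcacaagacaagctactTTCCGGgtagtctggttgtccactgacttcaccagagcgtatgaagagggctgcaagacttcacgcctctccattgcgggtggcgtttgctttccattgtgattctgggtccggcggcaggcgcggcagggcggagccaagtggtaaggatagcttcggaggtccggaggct
Cox8a: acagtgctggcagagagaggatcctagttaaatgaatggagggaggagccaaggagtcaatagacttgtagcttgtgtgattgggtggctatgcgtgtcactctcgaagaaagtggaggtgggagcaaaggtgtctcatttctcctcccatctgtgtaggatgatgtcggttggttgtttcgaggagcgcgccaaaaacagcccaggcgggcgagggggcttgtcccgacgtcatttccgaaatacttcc
Motifs were searched on both strands: the E-box CAGCTG, the MEF2 site, the NRF1 core, the ETS core CCGGAA and the ERR site AAGGTCA. Cox8b holds 1 match to CAGCTG, 19 bases before its start, and Cox7a2 holds 1 match to CCGGAA on the opposite strand. For members 1 promoter per gene was counted, whereas the whole set of 32851 can hold more than 1 for a gene, so the shares differ in unit. CAGCTG was found in 9.4% of the 64 member promoters and in 13.0% of 32851 promoters of the same length. The MEF2 site was found in 0 of 64 and 2.92% of all. CCGGAA was found in 28.1% of member promoters and 12.03% of all, the NRF1 core in 6.2% and 0.78%, and AAGGTCA in 7.8% and 4.08%. No motif overlaps another on the list in these 4 promoters. A match describes these letters only and shows no binding.

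Another pair of subunit forms followed its own course. Cox4i2 (chromosome 2, 152754173 to 152765037, plus strand), the form of COX4 known from lung and from oxygen-responsive cells, was at 10.98, 12.2, 9.37 and 8.69 CPM in WT day 0 and at 3.56, 3.34, 3.005 and 3.14 in WT day 7, a fall of 1.66 ± 0.22 on the log2 scale (SE, edgeR adjusted p = 2.47e-06). Its common partner Cox4i1 fell by 0.56, from 267 ± 41.2 to 181 ± 7.10 CPM. Ndufa4l2 (chromosome 10, 127514967 to 127517154, plus strand), a hypoxia-inducible relative of Ndufa4, fell by 0.63 ± 0.14 (SE, edgeR adjusted p = 0.000677), and Ndufa4 by 0.93. Ndufa4 carries a complex I name but is now known as a subunit of complex IV. Among the other partner genes, Cox6b1 fell by 0.39, Cox7b by 0.73 and Cox7a2l, a factor in supercomplex assembly, by 0.28 on the log2 scale.

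**Figure D3:**
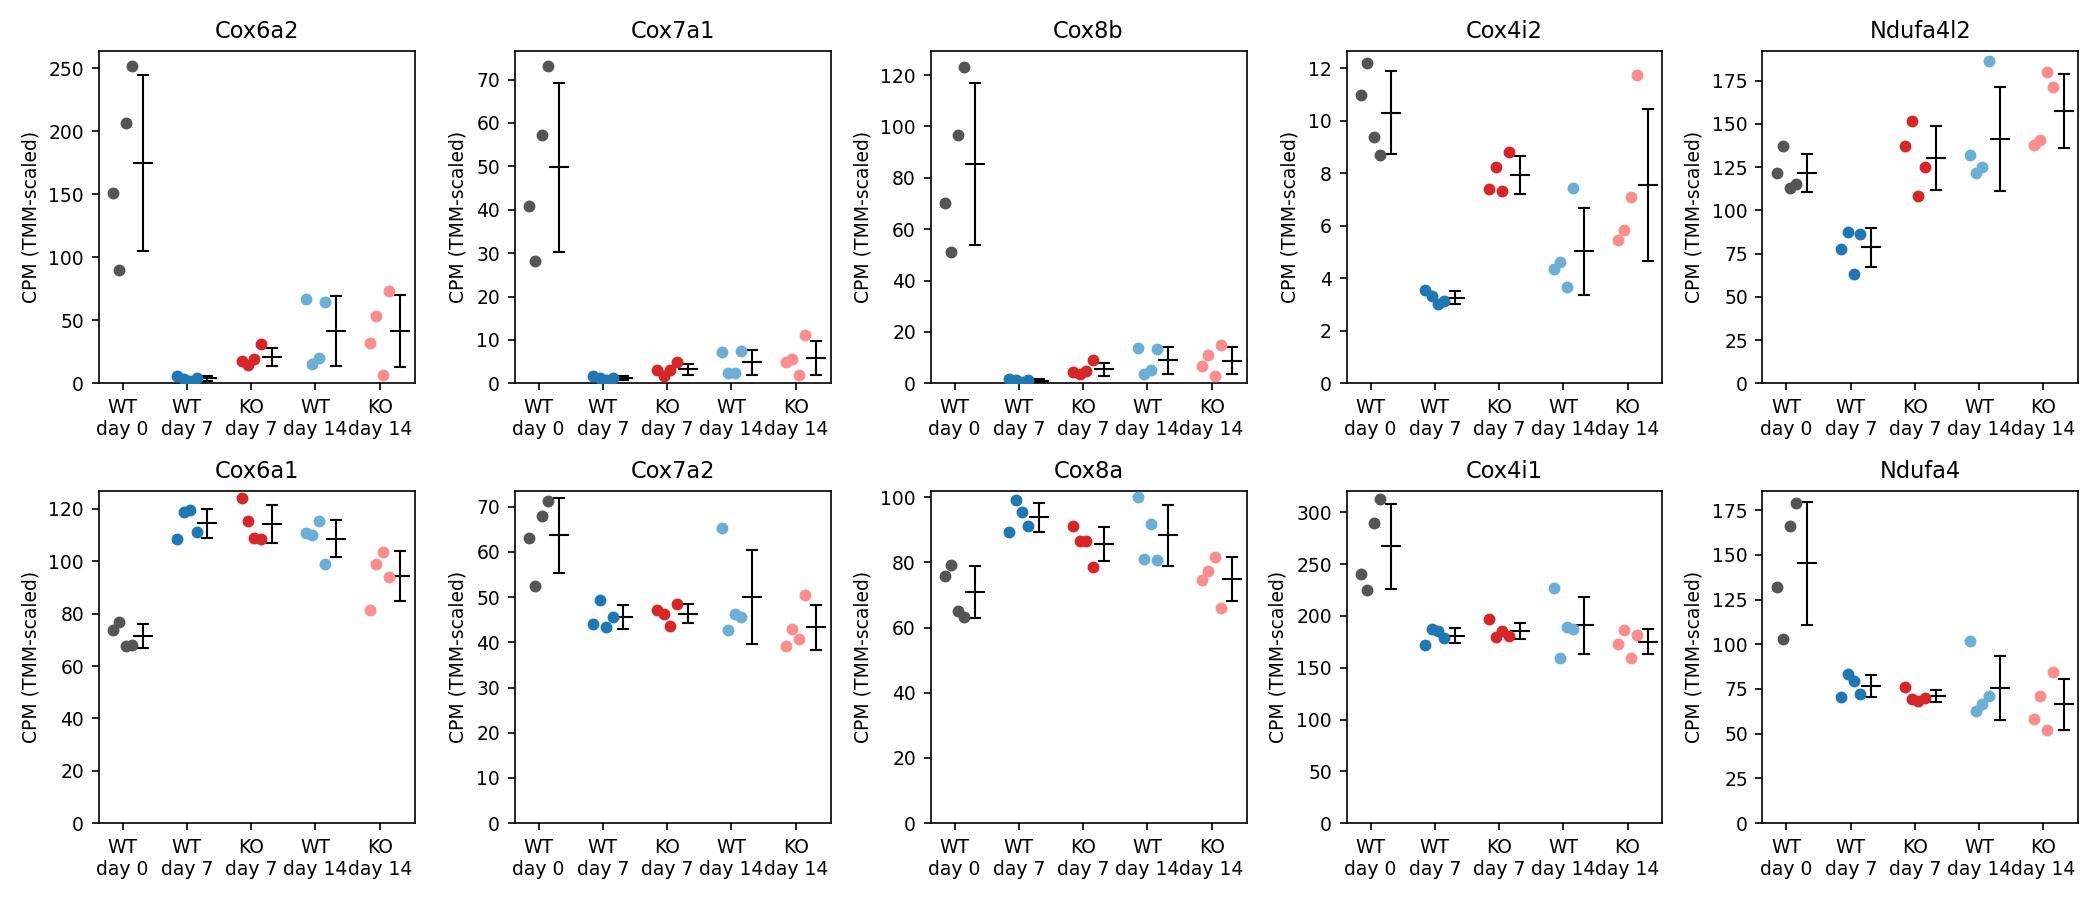
Level (CPM after TMM scaling, each axis from 0) of 5 tissue-restricted forms (upper row) and of their partner genes (lower row) in each library, with group mean and SD (n = 4). Cox6a2, Cox7a1 and Cox8b were near 0 in WT day 7, whereas Cox6a1 and Cox8a were above every day 0 library there.

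Other genes of mitochondrial energy metabolism were counted from lists chosen beside the members. Over all genes tested, 31.8% were lower and 32.3% higher at WT day 7 than at WT day 0, and 64.1% differed. At WT day 7, 17 of 19 genes of the citric acid cycle and pyruvate dehydrogenase fell and none rose (median -0.91), among them Mpc2, a mitochondrial pyruvate carrier, at -1.55 and Idh3b, a subunit of isocitrate dehydrogenase, at -1.25. Of 19 fatty acid oxidation genes 15 fell and 1 rose (median -0.55), with Acadm, the medium-chain acyl-CoA dehydrogenase, at -1.38. Of 45 assembly factors of the complexes 25 fell and 6 rose (median -0.33). Surf1, an assembly factor of complex IV, changed by -0.78 and Uqcc1, one of complex III, by -1.26. Of 20 genes of electron carriers and adenine nucleotide transport 13 fell and 2 rose. The muscle ADP/ATP carrier Slc25a4 fell from 1129 to 240 CPM (log2 -2.24), while its counterpart of dividing cells, Slc25a5, rose from 40.9 to 133 CPM (log2 1.70). The inhibitor of ATP hydrolysis by complex V, Atpif1, rose by 1.22.

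Among 15 regulators of mitochondrial biogenesis 8 fell and 2 rose, with Perm1, a muscle-enriched regulator, at -4.35 and the nuclear receptor Esrra at -1.08. Among 25 genes of mitochondrial DNA upkeep and transcription 8 fell, 4 rose and 13 did not pass the test (median -0.13). The share that fell was near the 31.8% of all genes tested, and the share that differed was below their 64.1%. The helicase Twnk changed by -0.86 and Polrmt, the mitochondrial RNA polymerase, by -0.45. Of 26 genes of mitochondrial import, cristae and chaperones 11 fell and 6 rose, with Chchd10 at -4.39 and Mfn2 at -2.10. Of 12 hypoxia response genes 5 fell and 2 rose (median -0.008), where 64.1% of all genes differed. The median of the lists of import and of DNA upkeep was thus nearer 0 than that of the respiratory chain itself.

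At WT day 14 the medians of the mitochondrially encoded and of all nuclear members against day 0 were smaller in size than at WT day 7, while that of complex II was larger (-0.76 against -0.65). All 7 mitochondrially encoded genes were lower in WT day 14, with a median of -1.80, where 26.2% of all genes were lower, 28% higher and 54.3% differed. Of the 81 nuclear genes 68 were lower and 2 higher, with a median of -0.64. The 2 were again Cox6a1 at 0.60 and Cox8a at 0.32. By complex, 31 of 37 genes of complex I, 4 of 4 of complex II, 8 of 8 of complex III, 11 of 16 of complex IV and 14 of 16 of complex V were lower. Sdha was at 148, 136, 138 and 178 CPM, below all WT day 0 libraries (log2 -1.30 ± 0.13 SE, edgeR adjusted p = 1.09e-07). The leading changes were -1.21 for Ndufa12, -1.17 for Ndufs7 and -1.09 for Ndufs1 in complex I, -1.27 for Uqcrc1, -1.15 for Uqcrfs1 and -0.91 for Uqcr11 in complex III, and -1.08 for Atp5a1, -0.94 for Atp5g1 and -0.85 for the catalytic beta subunit Atp5b in complex V. The muscle forms Cox7a1, Cox8b and Cox6a2 were also lower than at day 0, at log2 changes of -3.37, -3.25 and -2.07. Of the 32 muscle fibre markers 27 were lower and 3 higher at WT day 7, and 16 lower and 4 higher at WT day 14.

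The KO groups were set against the same WT day 0 libraries. At KO day 7, where 57.7% of all genes differed and 28.3% were lower, all 7 mitochondrially encoded genes were lower (median -2.43), 73 nuclear genes were lower and 2 higher (median -0.74). At KO day 14, where 50.3% differed and 25% were lower, all 7 were lower (median -1.88), 74 nuclear genes were lower and 2 higher (median -0.76). The higher genes were Cox6a1 at 0.68 and Cox8a at 0.28 at KO day 7, and Cox6a1 at 0.40 and Ndufa4l2 at 0.37 at KO day 14. The muscle forms stood nearer to their day 0 level in KO day 7 than in WT day 7, with log2 changes of -3.97 for Cox8b, -3.94 for Cox7a1 and -3.08 for Cox6a2, and the muscle fibre markers did so too, with 20 of 32 lower and 4 higher. The largest changes in the other complexes were those of Ndufb9 at -1.26, Sdha at -1.03, Uqcrfs1 at -1.01 and Atp5g1 at -1.43 in KO day 7, and of Ndufa12 at -1.33, Sdha at -1.16, Uqcrfs1 at -1.12 and Atp5g1 at -1.42 in KO day 14. In the authors' deposited table, counted at the same threshold, 75 of the 79 nuclear members listed were lower and 2 higher at WT day 7, and all 7 mitochondrially encoded genes listed were lower in the comparisons with day 0.

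Between day 7 and day 14 in WT tendon, where 30.4% of all genes differed and 16% were higher, 5 of 7 mitochondrially encoded genes rose and none fell. They were mt-Nd2 at 0.76, mt-Nd4 at 0.73, mt-Cytb at 0.66, mt-Nd6 at 0.54 and mt-Nd1 at 0.52 on the log2 scale. mt-Nd4 was at 1091, 891, 800.3 and 800.8 CPM in WT day 7 and 1672, 1377, 1297 and 1612 in WT day 14, without overlap (edgeR adjusted p = 0.00268). mt-Nd5 at 0.47 ± 0.19 (SE) and mt-Co1 at 0.39 ± 0.17 did not pass the test. Of the 81 nuclear members 11 rose and none fell, a share of 13.6% called against 30.4% of all genes. The largest were the muscle forms Cox6a2 at 3.41, Cox8b at 3.06 and Cox7a1 at 1.98, followed by Ndufa4l2 at 0.84 and Cox4i2 at 0.62. The others were Ndufa13, Atp5e, Ndufb2, Ndufa6, Ndufa2 and Ndufb11, at 0.53 to 0.31. Ndufa13 shares 30.0% of its exon bases with Tssk6 on the other strand, and whether the counting used strand is not given. In the same comparison 27 of 32 muscle fibre markers and 10 of 10 tendon fibroblast markers rose (medians 3.03 and 0.88), and 9 of 10 macrophage markers fell (median -0.69). Their part in the members' rise was not tested. Leaving out WT day 7 replicate 3, WT day 7 replicate 4 or WT day 14 replicate 1 left 3 mitochondrially encoded and 7 nuclear genes each time.

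In KO tendon, where 15.7% of all genes differed between day 7 and day 14 (7.09% higher and 8.57% lower), 3 of 7 mitochondrially encoded genes rose. These were mt-Nd2 at 0.66, mt-Nd4 at 0.60 and mt-Cytb at 0.57. No nuclear member rose, and Cox6a1 fell by 0.27 ± 0.08 on the log2 scale (SE, edgeR adjusted p = 0.0213). The counts are small and changed with single libraries: without WT day 0 replicate 2 there were 5 mitochondrially encoded genes, and without KO day 7 replicate 3 or KO day 14 replicate 4 there was 1. The call of Cox6a1 was lost without any 1 of 3 libraries, replicates 1 and 2 of KO day 7 and replicate 1 of KO day 14. In this comparison 2 of 32 muscle fibre markers and 6 of 10 tendon fibroblast markers rose, and 7 of 10 macrophage markers fell.

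The question of the design was whether loss of the receptor in Scx-expressing cells alters the tendon at the same day of growth. KO and WT groups also differed in the ScxCreERT2 allele itself. Effects of this allele and of receptor loss can therefore not be told apart here. At day 7, where 14.8% of all genes differed between KO and WT while 9.39% were higher in KO and 5.42% lower, no mitochondrially encoded gene passed the test and none had an unadjusted p under 0.05 in edgeR, nor did DESeq2 or limma-voom call one. The intervals of the difference (95%) for the 7 genes ran together from -0.48 to 0.60 on the log2 scale. The interval of mt-Co1 was -0.40 to 0.32 on the log2 scale and that of mt-Cytb -0.38 to 0.38, and mt-Nd2, the highest in KO, had 0.24 with an interval of -0.11 to 0.60. Of the 81 nuclear members 5 were higher in KO and none lower, a share of 6.17% against 14.8% of all genes.

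The 5 were Cox6a2, Cox8b, Cox4i2, Ndufa4l2 and Atp5d. Cox6a2 was at 17.4, 14.9, 19.2 and 31.4 CPM in KO day 7, above all WT day 7 libraries (log2 2.41 ± 0.67 SE, edgeR adjusted p = 0.0250). Cox8b was at 4.54, 3.43, 4.72 and 8.96 CPM in KO and 1.5, 1.12, 0.318 and 1.31 in WT (log2 2.34 ± 0.59 SE, edgeR adjusted p = 0.0169). Cox7a1 was higher in KO in every library too, at 1.79 to 4.83 CPM against 0.813 to 1.75, but did not pass the test (log2 1.40 ± 0.53 SE, edgeR adjusted p = 0.0842). Beside these, 20 of 32 muscle fibre markers were higher in KO and none lower, and their share of counts did not overlap between the groups. Tendon fibroblast markers were higher too, 5 of 10 with none lower, and summed to 90140 to 110100 CPM in KO and 49250 to 61000 in WT. This list includes Scx, whose count may differ through the ScxCreERT2 allele itself.

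Cox4i2 was at 7.38, 8.22, 7.31 and 8.79 CPM in KO day 7, all above the 3.005 to 3.56 of WT day 7 and below or within the 8.69 to 12.2 of WT day 0 (log2 1.28 ± 0.22 SE, edgeR adjusted p = 0.00113). Ndufa4l2 was at 137, 152, 108 and 125 CPM in KO and 77.8, 87.8, 62.9 and 86.2 in WT, without overlap (log2 0.73 ± 0.14 SE, edgeR adjusted p = 0.00269). Neither gene differed between KO day 7 and WT day 0 by the test (log2 -0.38 and 0.10, edgeR adjusted p = 0.141 and 0.562). Atp5d, the delta subunit of the F1 head, was at 96.6, 91.1, 107 and 103 CPM in KO and 66.7, 76.4, 78.8 and 75.7 in WT (log2 0.42 ± 0.13 SE, edgeR adjusted p = 0.0342). The groups of these 5 genes did not overlap, and the exact permutation test gave p = 0.0286 for each. As the genes were picked by the edgeR test on the same libraries, neither adds support to that test. The share of all genes without overlap was not counted. Without KO day 7 replicate 4, 2 of the 5 were called, Cox4i2 at 1.23 and Ndufa4l2 at 0.75, and the share of all genes called was 7.85%. The log2 values of the others were then 2.14 for Cox6a2, 1.99 for Cox8b and 0.40 for Atp5d (edgeR adjusted p = 0.0742, 0.0590 and 0.0862). Without WT day 7 replicate 2 or WT day 7 replicate 4 there were 3.

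Both Cox4i2 and Ndufa4l2 are known from pericytes and smooth muscle of vessels. A list of 8 pericyte markers, added after these values were seen, had a summed level of 610.5 to 779.7 CPM in WT day 7 and 842 to 1060 in KO day 7. Of the 8, Cspg4, Notch3 and Pdgfrb were higher in KO and none was lower, where 14.8% of all genes differed. At WT day 7 against day 0, 5 of the 8 were lower and 1, Mcam, was higher, where 64.1% of all genes differed. None of the 7 endothelial markers differed between KO and WT at day 7. No pericyte marker was at 0 in any group. The part of these cells in the level of Cox4i2 and Ndufa4l2 was not tested.

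At day 14, where 1.78% of all genes differed between KO and WT (1.06% higher and 0.719% lower), no member passed the edgeR test. At an unadjusted p under 0.05 there were 0 of 7 mitochondrially encoded and 9 of 81 nuclear members, 11.1%, against 16.7% of all genes. DESeq2 and limma-voom called none either. The median log2 difference of the nuclear members was -0.135, against -0.015 over all genes tested. Below 0 were 64 of the 81, against 9901 of 18918 over all genes. Among those lower in KO, Uqcrq at -0.34 and Cox8a at -0.24 had 95% intervals wholly below 0. The median of the mitochondrially encoded genes was -0.035. The intervals of the 7 mitochondrially encoded genes ran together from -0.50 to 0.50 on the log2 scale. Cox4i2 had the smallest adjusted p, at 5.45, 5.84, 7.10 and 11.8 CPM in KO and 4.34, 4.62, 3.68 and 7.45 in WT (log2 0.59 with a 95% interval of 0.12 to 1.06, edgeR adjusted p = 0.181). Without WT day 14 replicate 4 it passed, at 0.84 (edgeR adjusted p = 0.0196). The intervals of the muscle forms were wide, from -1.32 to 1.30 for Cox6a2. The test of the interaction, whether the KO difference changed between the days, called no gene in the whole table (0% of genes tested). For the members, 0 of 7 and 5 of 81 had an unadjusted p under 0.05, 6.17% of nuclear members against 10.8% of all genes, and the smallest adjusted p was 0.308, of Cox8b.

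Muscle fibre genes were set beside the members through a muscle score. This score, the mean log2 CPM of the 32 markers in each library, was 8.55 ± 0.619 in WT day 0, 4.31 ± 1.15 in WT day 7, 6.85 ± 0.519 in KO day 7, 7.10 ± 1.21 in WT day 14 and 7.32 ± 1.64 in KO day 14 (SD, n = 4). In a fit with the groups and this score, the slope was positive and passed the test for Cox6a2 at 0.91 log2 units per unit of score, Cox8b at 0.76 and Cox7a1 at 0.67. It was positive and passed for 15 of 81 nuclear members, 3 of 7 mitochondrially encoded members and 727 of the 18918 genes tested. The score itself differed between groups, with WT day 7 (2.64 to 5.18) below every library of WT day 0, KO day 7 and WT day 14, so the score and these group differences cannot be fully told apart in this fit. From WT day 7 to KO day 7 the mean score was higher by more than its SD in either group. Summed without logs, the markers were at 2472 ± 1162 and 13200 ± 5168 CPM there, against 71130 ± 25970 in WT day 0. The summed levels of the members in WT day 7 and KO day 7 were 12194 and 12323 CPM for the mitochondrially encoded. For the nuclear members they were 5074 and 5352 CPM. How far muscle fibres account for these levels was not tested.

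**Figure D4:**
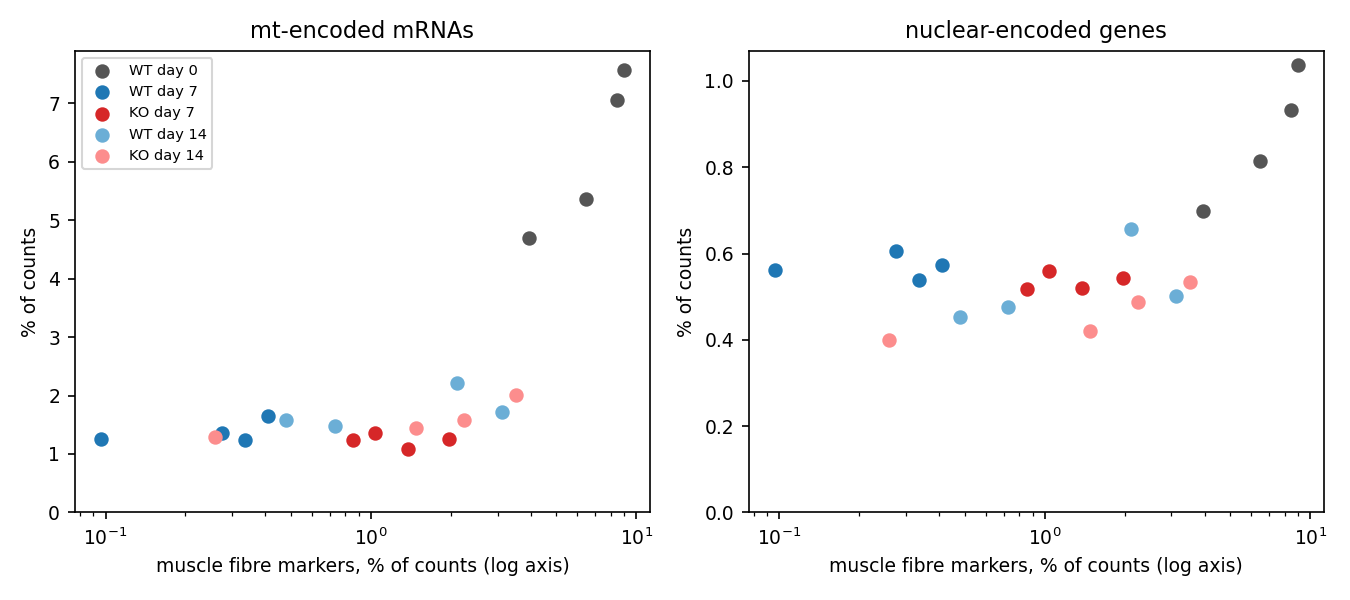
Share of all counts from the mitochondrially encoded and the nuclear members against the share from 32 muscle fibre markers (log axis), 1 point for each of the 20 libraries. The 4 day 0 libraries are highest in all 3 shares. Among the other 16, the mitochondrially encoded share runs from 1.09% to 2.21% and the marker share from 0.0960% to 3.51%.

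With the score as a covariate, the fall of all 7 mitochondrially encoded genes from WT day 0 to WT day 7 was still called, at a median of -1.72 in place of -2.46. The nuclear members called in the same comparison went from 76 to 17, all 17 among the 76, and their median from -0.77 to -0.28. Over all genes tested the share called went from 64.1% to 37.8%. Those 17 were the 3 muscle forms, Cox4i2, Cox6a1, Sdha, Atp5e and 10 genes of complex I, among them Ndufs7 at -0.90 and Ndufa6 at -0.89. Of the nuclear calls against WT day 0, 64 of 75 were kept in KO day 7 (median -0.52; all genes 57.7% to 50.8%), 58 of 70 in WT day 14 (median -0.48; all genes 54.3% to 48.8%) and 74 of 76 in KO day 14 (all genes 50.3% to 46.3%). The 5 mitochondrially encoded genes that rose between WT day 7 and WT day 14 were not called with the score (median 0.14 in place of 0.54). Of the 11 nuclear members that rose there, 3 were still called (Cox6a2, Cox8b and Ndufa4l2), 5 others were called lower, and the nuclear median went from 0.07 to -0.16. Over all genes the share called in that comparison went from 30.4% to 16.3%.

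At day 7 the difference between KO and WT was 1.03 for Cox4i2 and 0.66 for Ndufa4l2 with the score, both still called (edgeR adjusted p = 0.0317 and 0.0359). It was 0.23 for Cox6a2, 0.53 for Cox8b and 0.24 for Atp5d, none called (edgeR adjusted p = 0.400, 0.132 and 0.402). Over all genes the share called went from 14.8% to 5.56%. The median difference of the mitochondrially encoded genes went from 0.036 to -0.385, with 0 called in either fit. That of the nuclear members went from 0.023 to -0.238, with 5 called without the score and 3 with it. Atp5g1 was called lower in KO with the score, at -0.91 (edgeR adjusted p = 0.0176), and not called without it, at -0.36. The summed level of 16 white adipocyte markers also fell, from 7375 ± 1435 CPM in WT day 0 to 1074 ± 343 in WT day 7, and that of 10 macrophage markers rose from 2071 ± 138 to 5887 ± 1338. The part of adipocytes and macrophages in the members' levels was not tested.

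**Figure D5:**
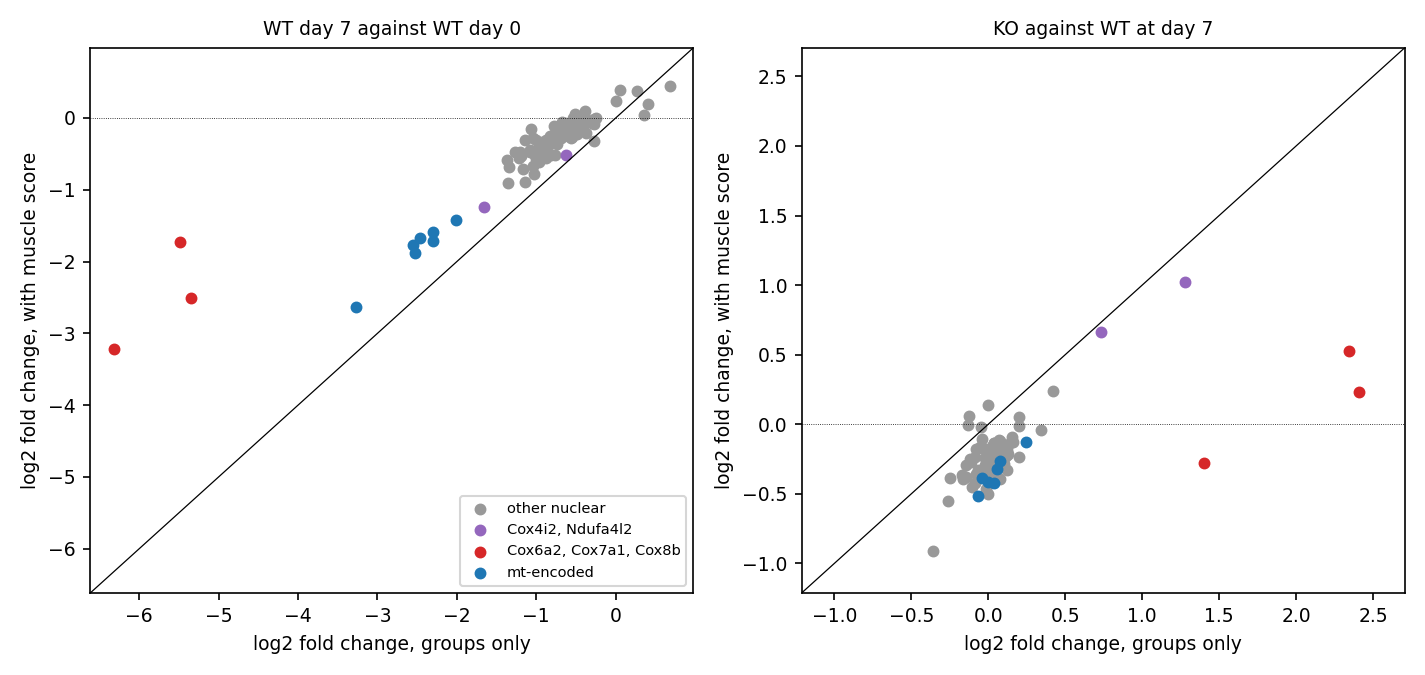
Log2 fold change of each tested member in the fit with groups alone (x axis) against the fit that adds the muscle score (y axis), for WT day 7 against WT day 0 (left) and KO against WT at day 7 (right); the line marks equal values. On the right, Cox4i2 and Ndufa4l2 lie near the line at 1.03 and 0.66, while Cox6a2 and Cox8b drop to 0.23 and 0.53.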

How the data were processed

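RNA-seq was available for 20 plantaris tendon libraries of mice in 5 groups of 4, grouped by their titles. Values are gene-level read counts, deposited as a whole-number table of 24885 genes with at least 21 counts each. Per the submitters' processing notes, FastQC, STAR, edgeR and mm10 were used, while for the counter, the annotation and the use of strand nothing is given in the sources used here. A table of the authors' own comparisons was deposited with log2 fold changes, p-values and adjusted p-values, and was used only for counts of members called.

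The counts were tested in edgeR 4.0.16 (R 4.3.3) by its quasi-likelihood F test with robust dispersions, TMM normalization and edgeR's expression filter (18918 genes), in 1 model of the 5 groups over all 20 libraries with 15 residual degrees of freedom. P-values were adjusted by Benjamini-Hochberg over all genes tested, at a threshold of 0.05. Levels are CPM after TMM scaling, and levels per kilobase used the merged exon length of a GENCODE annotation of GRCm38. Depth ran from 32254411 to 63522834 counts, and its counting error lay far below the spread between libraries, since replicates of 1 group differed by a chi-square of at least 15.4 per degree of freedom. Alternatives were RLE and upper-quartile factors, totals without mt- genes, no filter, at least 1 CPM in at least 4 libraries, limma-voom (limma 3.58.1), DESeq2 1.42.0, the compared groups alone, a replicate block, leaving out each library, and a muscle score added to the model. The script was tested on simulated data, for WT day 7 against WT day 0. It recovered 25 of 67 genes changed 1.5-fold, 36 of 66 changed 2-fold and 56 of 65 changed 4-fold, with 4 false calls. Changes of 2-fold or less were thus often missed in the simulated data.

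The members were chosen by symbol, and they and all gene lists were chosen with earlier results of these data known. Named are every mitochondrially encoded member, the tissue forms of complex IV with their partners, the SDH genes, and in each comparison up to 3 members a complex with the largest changes that passed the test, and any that moved against the rest. From each related list up to 4 genes with the smallest p were named. The pericyte list and other genes given with values were added after their values were seen.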

Additional observations from a re-analysis of the deposited data

Results flagged for a closer look

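Of 140 groups of 4 libraries tested for a library far from the others (25 members and 3 summed shares in each of 5 groups), 6 held one by Dixon's test at 95%, and chance flags about 1 in 20 groups. In WT day 14, replicate 1 was high for 3 nuclear members, Cox7b at 87.9 CPM (the others 51.6 to 54.9), Sdhd at 102 CPM (the others 78.98 to 82.3) and Cox7a2 at 65.3 CPM (the others 42.7 to 46.3), and replicate 4 was high for Ndufa4l2 at 186 CPM (the others 121 to 132). In KO day 14, replicate 4 was high for Cox7b at 69.96 CPM (the others 47.5 to 51.1). In WT day 7, replicate 1 was high for mt-Nd5 at 1736 CPM (the others 1340 to 1392). WT day 14 replicate 1 was also among the libraries whose omission lowered the count of genes that rose between WT day 7 and WT day 14, from 5 to 3 mitochondrially encoded and from 11 to 7 nuclear.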

How the results depend on the processing

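All 7 tested mitochondrially encoded genes were lower in each of the 4 comparisons with day 0 under every alternative run, and without each library; with no filter on low counts mt-Nd3, at 0 in WT, was called as well in both KO groups. The nuclear calls there ranged with 1 library left out from 70 to 77 at WT day 7, 60 to 74 at WT day 14, 68 to 75 at KO day 7 and 72 to 77 at KO day 14, each lowest without WT day 0 replicate 4. For WT day 14 against day 7 the range was 3 to 6 mitochondrially encoded and 7 to 14 nuclear, for KO day 14 against day 7 it was 1 to 5 and 0 to 1. For KO against WT it was 0 mitochondrially encoded at both days, 2 to 5 nuclear at day 7 and 0 to 1 at day 14, and for the interaction 0. With the muscle score, 17 nuclear genes were called at WT day 7, 0 mitochondrially encoded between WT day 7 and 14, 2 nuclear between KO day 7 and 14, and 3 nuclear for KO against WT at day 7. Cox6b1 at WT day 7 then turned to 0.095 and Cox7a1 between WT day 7 and 14 to -0.0039 on the log2 scale (edgeR adjusted p = 0.732 and 0.996), both small values that did not pass. With the compared groups alone, 6 nuclear genes were called between WT day 7 and 14, 0 between KO day 7 and 14, and 8 for KO against WT at day 7. limma-voom called 7 nuclear genes between WT day 7 and 14, and DESeq2 5 mitochondrially encoded between KO day 7 and 14. Without a filter, 1 mitochondrially encoded gene was called for KO against WT at day 7, the sparsely counted mt-Nd3 (edgeR adjusted p = 0.0211). The cause of these changes was not tested.

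Replicate numbers were not taken to pair the libraries: over 40 same-numbered pairs the deviations had a median correlation of 0.05 (-0.16 to 0.27; other pairs -0.01), 14 of the 40 were over 0.1, and 10 of 20 libraries correlated best with their own number, a hint from the data and not the design. With a replicate block the nuclear calls were 75, 69, 75 and 76 at WT day 7, WT day 14, KO day 7 and KO day 14 against day 0, 10 and 1 between the days in WT and KO, and 6 and 0 for KO against WT at day 7 and 14. The block added 4 single calls: mt-Nd5 between the days in WT (0.46) and in KO (0.50), Cox4i2 at KO day 14 against day 0 (-0.50) and Cox7a1 for KO against WT at day 7 (1.34).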

Other observations

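At day 7, where 14.8% of all genes differed between KO and WT tendon (9.39% higher and 5.42% lower), none of 45 assembly factors, 19 genes of the citric acid cycle and 19 of fatty acid oxidation passed the edgeR test. Both mitochondrial creatine kinases were higher in KO, Ckmt2 at 14.8 ± 4.11 CPM against 2.20 ± 1.57 (SD, n = 4; log2 2.74, edgeR adjusted p = 0.0209) and Ckmt1 at 1.25 ± 2.01 against 0.0652 ± 0.0310, the SD of Ckmt1 in KO exceeding its mean. Ckmt2 transfers phosphate from ATP to creatine in striated muscle, and 20 of 32 muscle fibre markers were higher beside it. Of 12 hypoxia response genes 1 was higher, the oxygen sensor Egln3 (log2 0.95, edgeR adjusted p = 0.0438), and the list median was 0.06. Of 25 genes of mitochondrial DNA upkeep 1 was higher, the helicase Twnk at 0.33 (list median -0.14), and of 15 biogenesis regulators 1, the nuclear receptor Ppard at 0.48 (list median 0.18). Of 26 genes of import, cristae and chaperones 3 were lower and none higher: the prohibitin Phb at -0.64 and the outer membrane import proteins Tomm22 and Tomm70a, both at -0.29.

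The Ndufa4l2 share of the Ndufa4l2 and Ndufa4 level per kilobase was 51.8% ± 8.27 at WT day 0 and 56.3% ± 4.44 at WT day 7 (SD, n = 4). It was 69.6% ± 2.80 in KO day 7, 70.0% ± 6.01 in WT day 14 and 74.9% ± 4.53 in KO day 14, so the KO day 7 libraries (66.5% to 73.3%) lay above those of WT day 7 (49.9% to 60.0%).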
